A study of Rattus norvegicus with 15 samples.

Results

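The genes of the fibrillar collagens I and III were followed along the rat Achilles tendon. The members are the 3 rows of the count table with the Ensembl identifiers ENSRNOG00000003897 (Col1a1), ENSRNOG00000011292 (Col1a2) and ENSRNOG00000003357 (Col3a1), out of 32883 rows. They were chosen by identifier, and all 3 were among the 15037 genes that passed the filter on low counts. Healthy male Sprague-Dawley rats, 8 weeks old and untreated, gave the tissue, and all groups share that age, sex and strain. Tendons were cut free between the muscle junction and the bone insertion, so neither end structure was meant to be included, and were split into distal, middle and proximal segments of equal length. Each library pools the same segment from both limbs of 1 rat, which gave 5 distal, 5 middle and 5 proximal libraries from 5 rats. The study asked how tendon differs along this axis.

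Collagen I is the main load-bearing fibril of tendon. Its molecule is a triple helix of α1 chains, encoded by Col1a1, and an α2 chain, encoded by Col1a2. Collagen III is a homotrimer of the Col3a1 chain that co-assembles with collagen I in thin fibrils and is known for its place in compliant, young or healing tissue. Both types are made by fibroblasts as procollagens, whose end propeptides are removed outside the cell before fibrils form.

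The type III gene fell from the distal to the middle segment and from the distal to the proximal one, whereas no regional difference was detected for the type I rows. Col3a1 was 4.04-fold lower in proximal than in distal tendon and 2.09-fold lower in middle than in distal tendon. The step to the middle segment passed in the edgeR fit, but not as a share of counts (exact permutation, adjusted p = 0.171). Relative to Col1a1 in the same library, Col3a1 was also lower at the proximal end of all 5 tendon pairs than at the distal end. Col1a1 took the largest share of counts in all 15 libraries, and its level spread more between rats in the proximal segments (SD of log2 CPM 1.14) than in the distal ones (0.13).

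Some properties of the libraries bear on these values. Library totals ran from 15413963 to 30178952 counts, with the proximal libraries the shallowest on average, and the members had 933 counts or more in every library. The middle library of rat 5 stood apart from the other middle libraries, at a root-mean-square distance of 0.745 log2 units from their mean over all tested genes, against 0.445 to 0.521 for the other 4. The proximal library of rat 2 was the farthest of its region, at 0.814. The table carries no gene names and the gene table used here pairs 0 of its identifiers with a symbol, so lists of tenocyte, muscle, cartilage, fat, vessel, immune, nerve and blood markers, and of the other genes of collagen synthesis, could not be applied. The part of other cell types in these differences was therefore not tested. In bulk tissue, fewer cells of a type and less RNA per cell cannot be told apart.

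The row listed as Col1a2 needs a caution. Its counts lay between 933 and 15378 per library, and there were 227 to 803 Col1a1 counts for each of its own (median 510). Both genes encode chains of the same protein. The symbols came with the list of members and could not be checked in the files. Reads that overlap more than 1 annotated gene, and how the counting treated them, were not examined, and the cause of the low count was not tested. The values are given below as those of the row listed as Col1a2, and nothing is read from them about the level of the α2 chain. In the RefSeq annotation of the later assembly GRCr8, 0 other genes overlap Col1a2 and Col3a1, and 1 (Sgca, which encodes α-sarcoglycan of muscle) overlaps Col1a1. The counts were made on the rn6 build, so this does not show which genes overlapped in the counting.

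Of the members, only Col1a2 has an entry in the RefSeq promoter table (GRCr8). The 100 bases at chr4:33518307-33518406 (plus strand, 250 to 151 bases before the annotated start) are shown because they hold the matches to 2 common promoter elements. The capitals mark a match to the CCAAT box on the minus strand (read here as ATTGG) and a match to the TATA box.
Col1a2: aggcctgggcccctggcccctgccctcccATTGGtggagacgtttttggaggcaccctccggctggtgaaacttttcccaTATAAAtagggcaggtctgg
The CCAAT match began 221 bases and the TATAAA match 170 bases before the annotated start. In windows of the same length and place, 14.5% of 33469 promoters held CCAAT and 5.43% held TATAAA, on either strand. The window was chosen for its matches, so these percentages do not test them. On both strands, the GC box GGGCGG (in 10.4% of promoters) had no match in this window. The same held for the E-box palindrome CACGTG (1.86% of promoters) and for the further E-box CATCTG (6.06%). The CCAAT and TATAAA matches do not overlap each other. These letters describe the gene and were not tested against the counts. Whether either match acts as a promoter element at this distance from the annotated start was not tested.

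Col3a1 was high in every distal library and lower toward the proximal end in every rat. As a share of library counts it stood at 5.16% in rat 1, 4.67% in rat 2, 4.37% in rat 3, 4.27% in rat 4 and 4.27% in rat 5 in distal tendon. The middle segments held 3.08, 2.95, 2.79, 2.33 and 1.21% in the same order of rats. Proximal shares were 1.02, 2.17, 1.30, 1.25 and 0.855%. Distal libraries lay apart from both other regions, while the middle segment of rat 5 lay below the proximal segments of rats 2, 3 and 4, so middle and proximal ranges overlapped. By raw counts, not set per length, Col3a1 ranked at place 2 among all genes in each distal library and at place 3 in each middle and proximal library.

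**Figure D1:**
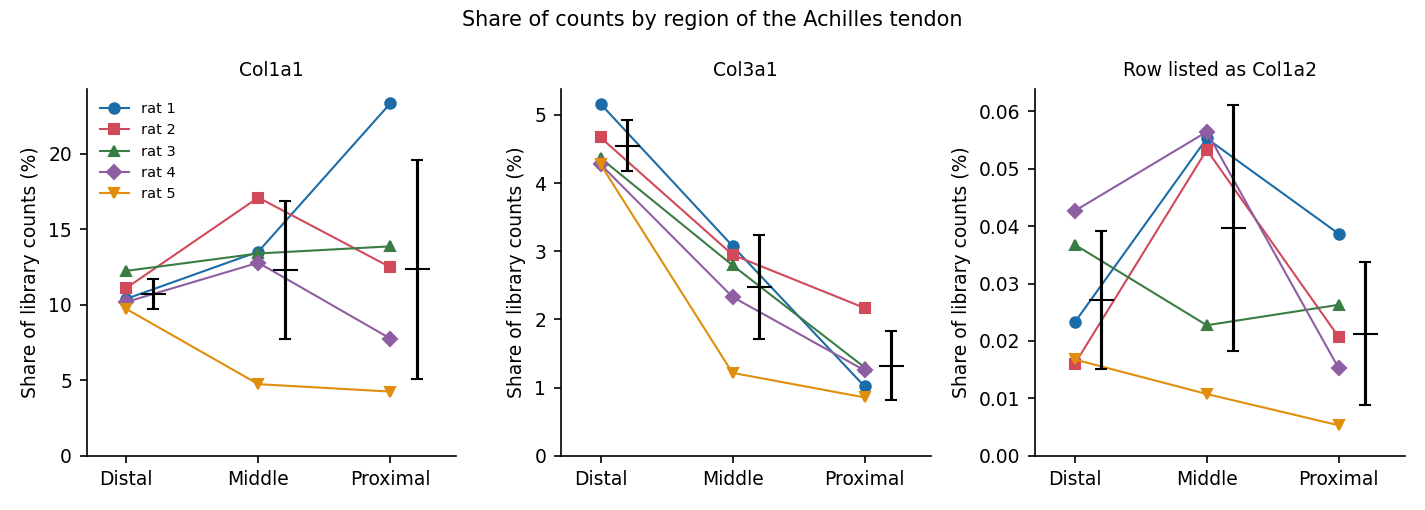
Share of library counts (%, y axis, from 0) for Col1a1, Col3a1 and the row listed as Col1a2 in distal, middle and proximal tendon, with 1 coloured line per rat and the mean ± SD (n = 5) in black. Col3a1 falls from 4.27 to 5.16% in distal to 0.855 to 2.17% in proximal tendon, while the proximal shares of Col1a1 fan out from 4.25 to 23.3%.

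Between the ends, the Col3a1 share fell by 3.23 ± 0.607 percentage points (SD of the within-rat difference, n = 5), with the proximal share below the distal one in each of the 5 rats. This difference passed an exact permutation test that reassigns the 3 segments within each rat (two-sided p = 0.000257, the smallest it can give, adjusted p = 0.00540 over the 21 shares and ratios tested). The arrangements of that test include the middle segments. An exact sign-change test of the 5 proximal-minus-distal differences alone gave its smallest possible p of 0.0625 and did not call the fall (adjusted p = 0.219). In CPM, counts brought to a common library size with TMM factors, distal Col3a1 measured 48155 ± 4810 CPM, middle Col3a1 25063 ± 9386 CPM and proximal Col3a1 12851 ± 5229 CPM (SD, n = 5). On the log2 scale the model put proximal below distal tendon with a change of -2.02 ± 0.239 (SE, approximate; edgeR quasi-likelihood test, adjusted p = 0.000114 over all genes tested). Within rats, log2 CPM differed by -1.99 ± 0.53 (SD, n = 5), with -1.23 for rat 2 and -2.67 for rat 5 as the extremes. Of all genes tested, 21.9% were lower in proximal tendon in all 5 rats and 12.6% had a proximal range wholly below the distal range, as Col3a1 did. A lower fitted fold change than that of Col3a1 was found for 1.42%.

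In rat 5 most of this change was already present at the middle segment. From distal to middle tendon the fitted Col3a1 change was -1.06 ± 0.233 (log2, approximate SE, edgeR, adjusted p = 0.00803), and the level was lower in 5 of 5 rats, as it was for 16.5% of all genes. For 7.49% of genes, Col3a1 among them, the middle range lay wholly below the distal range. The within-rat difference was -2.16 in rat 5 and between -0.98 and -0.60 in the other rats. Without the middle library of rat 5 the fitted change was -0.87 (edgeR, adjusted p = 0.0203), and without the rat block it was -0.94 and did not pass (adjusted p = 0.0571). The drop in Col3a1 share of 2.08 percentage points gave p = 0.0489 and an adjusted p of 0.171 in the exact permutation test. That test permutes the labels of all 3 regions, so the proximal values enter its reference distribution for this step as well. An exact sign-change test of the 5 middle-minus-distal share differences did not call the step either (p = 0.0625, its smallest possible, adjusted p = 0.219).

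From middle to proximal tendon Col3a1 was again lower in 5 of 5 rats, with differences of -1.39 to -0.51 log2 units. The fitted change of -0.95 ± 0.231 (approximate SE) did not pass (edgeR, adjusted p = 0.0714). DESeq2 called it (adjusted p = 0.000586, log2 fold change -0.95). So did edgeR without the middle library of rat 5 (adjusted p = 0.0432), without the distal library of rat 5 (0.0364) or without the proximal library of rat 2 (0.0443). These were 4 of 25 alternatives. The other 21 did not call the step, with an adjusted p of up to 0.266 (edgeR without rat 4). Of all genes tested, 9.16% were lower in proximal than in middle tendon in all 5 rats.

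**Figure D2:**
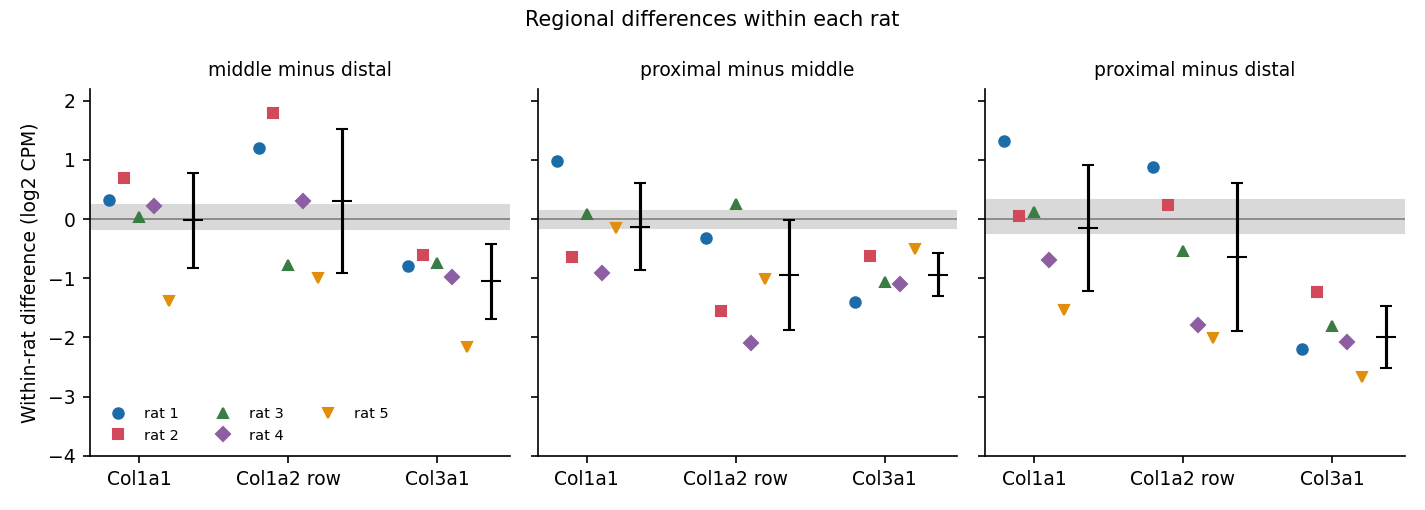
Within-rat differences in log2 CPM (y axis) for the 3 rows in each pair of regions, with 1 symbol per rat, the mean ± SD (n = 5) in black and a grey band for the interquartile range of all tested genes' mean differences. All 15 Col3a1 points lie below 0, whereas Col1a1 and the row listed as Col1a2 have points on both sides in every panel.

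Col1a1, the gene of the main chain of collagen I, had no consistent direction along the tendon. Its distal shares were 10.4% in rat 1, 11.1% in rat 2, 12.2% in rat 3, 10.2% in rat 4 and 9.72% in rat 5. In middle tendon the shares were 13.5, 17.1, 13.4, 12.8 and 4.74% in the same order. Proximal shares were 23.3, 12.5, 13.9, 7.76 and 4.25%. Middle and proximal values thus lay on both sides of the narrow distal range, with rat 1 the highest proximal library and rat 5 the lowest in both regions.

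The fitted Col1a1 change was -0.15 ± 0.386 on the log2 scale for proximal against distal (approximate SE, edgeR, adjusted p = 0.773). It was -0.06 ± 0.379 for middle against distal (adjusted p = 0.926, edgeR) and -0.09 ± 0.378 for proximal against middle (adjusted p = 0.916, edgeR). Within rats the proximal-to-distal difference was -1.54 for rat 5, -0.69 for rat 4, 0.05 for rat 2, 0.13 for rat 3 and 1.32 for rat 1. The mean CPM was higher in proximal (128905 ± 95008) than in distal tendon (113478 ± 10407, SD, n = 5), while the fitted change was slightly negative, so no direction is given. Middle against distal, Col1a1 was higher in 4 of 5 rats, by 0.04 (rat 3) to 0.69 (rat 2), and differed by -1.38 in rat 5. Without rat 5 the fitted middle-to-distal change was 0.32 and did not pass (edgeR, adjusted p = 0.553).

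Rats differed less in Col1a1 at the distal than at the proximal end. The SD of Col1a1 log2 CPM over 5 rats was 0.13 for distal, 0.89 for middle and 1.14 for proximal libraries. The middle value rests on 1 library: without the middle segment of rat 5 the Col1a1 SD there was 0.27, against a median of 0.22 over all tested genes. In proximal tendon the Col1a1 SD lay between 0.85 and 1.31 with any 1 library left out. With all libraries kept, over all tested genes the median SD was 0.18, 0.25 and 0.25 in the same regions, and over the 100 most abundant genes it was 0.15, 0.36 and 0.35. In proximal tendon 3.63% of genes varied more between rats than Col1a1 did, and in distal tendon 63.5% did. For Col3a1 the SDs were 0.14, 0.71 and 0.58. Without rat 5 the middle SD of Col3a1 was 0.24, and without rat 1 the distal one was 0.074. The libraries with the lowest Col1a1 shares were also those with the highest TMM factors (1.23 in the middle and 1.23 in the proximal library of rat 5, 1.17 in the proximal library of rat 4), and the part of library composition in the spread was not tested. The difference in spread between regions was not tested either.

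The row listed as Col1a2 averaged 286 ± 126 CPM over distal, 408 ± 236 CPM over middle and 221 ± 160 CPM over proximal libraries (SD, n = 5). Its distal shares were 0.0232, 0.0160, 0.0368, 0.0427 and 0.0168% in rats 1 to 5. Middle shares were 0.0553, 0.0533, 0.0227, 0.0564 and 0.0107%, and proximal shares 0.0387, 0.0207, 0.0263, 0.0152 and 0.00529%. The 3 ranges overlapped, and the middle segment was highest in rats 1, 2 and 4. None of its fitted changes passed in edgeR, with -0.69 ± 0.471 for proximal against distal (adjusted p = 0.266), 0.24 ± 0.468 for middle against distal (adjusted p = 0.749) and -0.94 ± 0.464 for proximal against middle (adjusted p = 0.285). It ranked between 133 and 4361 among all genes by raw counts.

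Read against the whole table, 1 of 3 members passed for proximal against distal (edgeR, adjusted p under 0.05), where 41.9% of all genes did, and 19.7% passed as lower in proximal tendon. For middle against distal 1 of 3 passed, against 24.8% of all genes and 11.6% as lower in middle tendon. For proximal against middle 0 of 3 passed in edgeR, against 0.412% of all genes. DESeq2 called 1 of 3 there, and 1164 genes in all. In edgeR 1 of 3 had an unadjusted p under 0.05. The share of all genes at that level was not counted, so this value has no background beside it. An F test of any regional difference called Col3a1 alone among the members (adjusted p = 0.000310, edgeR), where 37.4% of genes passed. The median fitted change of the members between the ends was -0.69, that of all tested genes 0.02. One call in 3 is near or below the share of all genes that differ between the ends, so the count says nothing particular about these collagens.

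Ratios of counts within a library do not depend on library size or scaling, and a change in such a ratio does not depend on gene length. There were 2.01, 2.38, 2.80, 2.38 and 2.28 Col1a1 counts for each Col3a1 count in the distal segments of rats 1 to 5. In the middle segments there were 4.39, 5.80, 4.80, 5.49 and 3.90. Proximal segments gave 23.0, 5.76, 10.7, 6.20 and 4.97. Every distal value lay below every middle and proximal value, and proximal rats 1 and 3 stood far above the others. In log2 CPM, Col3a1 alone already had its proximal and middle ranges wholly below the distal range, as did 12.6% and 7.49% of all genes. Ratios of other gene pairs were not computed, so no such share is given for the ratio.

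On the log2 scale, Col3a1 relative to Col1a1 averaged -1.24 ± 0.17 over distal, -2.27 ± 0.23 over middle and -3.08 ± 0.91 over proximal libraries (SD, n = 5). Proximal minus distal was negative for all 5 rats, from -3.51 in rat 1 to -1.13 in rat 5, and the mean difference of -1.85 passed (p = 0.000514, adjusted p = 0.00540, two-sided exact permutation within rats). Without rat 1 the mean difference was -1.43, with an adjusted p of 0.0324 (exact permutation). The call was lost with the median over rats (difference -1.38, adjusted p = 0.194, exact permutation). It was also lost with an exact test by sign changes of the 5 differences (adjusted p = 0.219), which cannot go below p = 0.0625.

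From distal to middle the ratio of Col3a1 to Col1a1 was lower in 5 of 5 rats, with a mean difference of -1.03 ± 0.24 log2 units (SD, n = 5). It did not pass the exact permutation of all 3 labels (p = 0.126, adjusted p = 0.331), and the exact sign-change test gave its smallest possible p of 0.0625. From middle to proximal the ratio was lower in 4 of 5 rats, with a mean difference of -0.81 ± 0.99 (adjusted p = 0.469, exact permutation). The single differences were -2.39 for rat 1, -1.16 for rat 3, -0.35 for rat 5, -0.18 for rat 4 and 0.010 for rat 2. In the middle library of rat 5, where the shares of both genes were the lowest of their region, the ratio was -1.96, the highest of the 5 middle libraries.

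**Figure D3:**
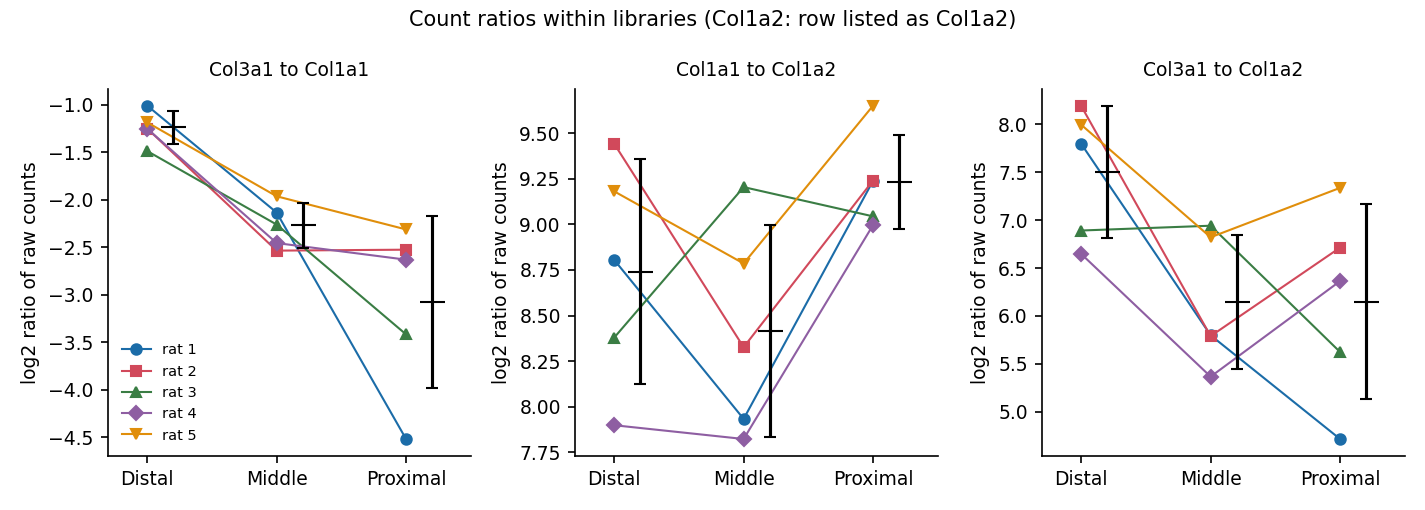
Log2 ratios of raw counts within each library (y axis) for Col3a1 to Col1a1, Col1a1 to the row listed as Col1a2 and Col3a1 to that row, by region, with 1 line per rat and the mean ± SD (n = 5) in black. Col3a1 to Col1a1 drops from a mean of -1.24 in distal to -3.08 in proximal tendon, with rat 1 lowest at -4.52.

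Ratios to the row listed as Col1a2 moved less evenly. Col1a1 counts per count of that row averaged 459 ± 184 over distal, 365 ± 152 over middle and 610 ± 116 over proximal libraries (SD, n = 5). The log2 ratio was higher in the proximal than in the middle segment of 4 of 5 rats, by 0.82 on average, which did not pass (p = 0.0172, adjusted p = 0.115, exact permutation). Without rat 3, the only rat in the other direction (-0.16), the difference was 1.06, with an adjusted p of 0.0324 (exact permutation). With any other rat left out it did not pass (adjusted p = 0.203 to 0.275, exact permutation). Col3a1 relative to that row was lower at the proximal than at the distal end of 5 of 5 rats, with a mean log2 difference of -1.35 (p = 0.0273, adjusted p = 0.115, exact permutation). In middle against distal segments it was lower in 4 of 5 rats, with a mean log2 difference of -1.36 (p = 0.0262, adjusted p = 0.115, exact permutation).

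Together the 3 genes held 15.3 ± 1.05% of distal, 14.8 ± 5.29% of middle and 13.7 ± 7.30% of proximal counts (SD, n = 5). The lowest library was the proximal segment of rat 5 at 5.11% and the highest that of rat 1 at 24.4%. Proximal and distal sums differed by -1.63 percentage points (adjusted p = 0.705, exact permutation), smaller in size than the SD of the within-rat differences (6.66, n = 5). Col1a1 made up most of each sum, so the total followed its spread more than the fall of Col3a1.

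**Figure D4:**
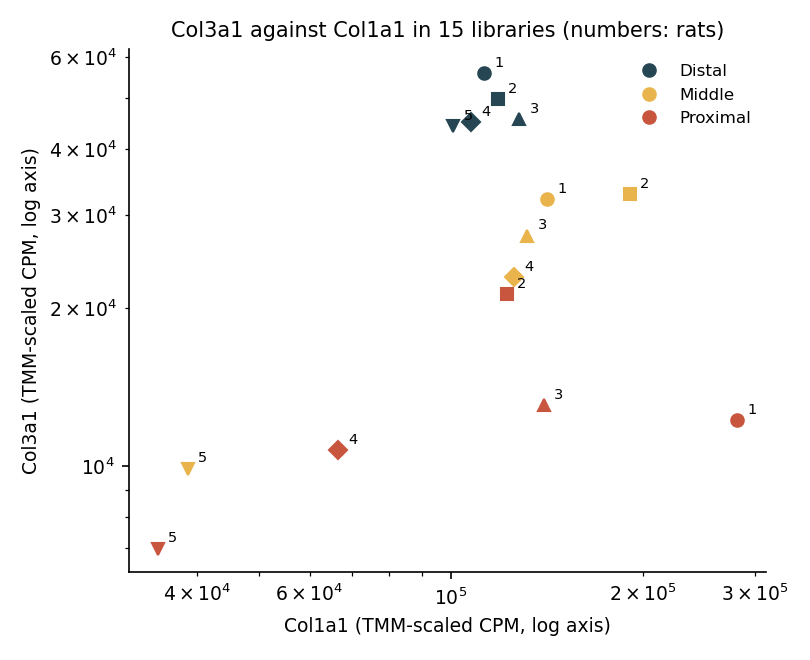
Col3a1 against Col1a1 in TMM-scaled CPM (both axes logarithmic), 1 point per library, coloured by region and numbered by rat. Distal libraries form a tight group between 100856 and 128044 CPM of Col1a1, while proximal libraries span 34672 to 281150 CPM of Col1a1 at Col3a1 values of 6976 to 21217 CPM.

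Across the 15 libraries, log2 CPM of Col1a1 and Col3a1 were loosely related (Pearson r = 0.455, Spearman rho = 0.186). After each region's mean was taken out, their deviations were more alike (r = 0.766, rho = 0.786). The middle and proximal libraries of rat 5 were the lowest of their regions in both genes. How much of this r rests on these libraries was not tested. Col1a1 and the row listed as Col1a2 had r = 0.852 over all libraries and r = 0.891 for the deviations. These are descriptions over 15 libraries that share rats, depth and scaling, and carry no test. By likeness to Col1a1, the row listed as Col1a2 came at place 232 of 15036 other genes and Col3a1 at place 2333. By likeness to the row listed as Col1a2, Col1a1 came at place 51 and Col3a1 at place 1707.

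The genes most like the members were found by Pearson correlation of log2 CPM over the same 15 libraries. ENSRNOG00000052925 was closest to Col1a1 (r = 0.984) and had 17.3 ± 2.63 CPM in distal, 18.9 ± 8.33 CPM in middle and 17.8 ± 12.9 CPM in proximal libraries (SD, n = 5). ENSRNOG00000008749 was closest to Col3a1 (r = 0.982) and stood at 2176 ± 271 CPM in distal, 1116 ± 408 CPM in middle and 601 ± 201 CPM in proximal libraries. Correlations above 0.9 were found for 105 genes with Col1a1, 276 with Col3a1 and 10 with the row listed as Col1a2, whose closest gene reached r = 0.935.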

How the data were processed

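Poly(A) RNA from 15 tendon segments was sequenced as stranded paired-end libraries, per the labels' protocols. The values are raw counts of reads per Ensembl gene, which the authors deposited without normalization. The submitters' processing notes name the rn6 build, featureCounts 2.0.1, HISAT2 2.2.1, fastp 0.19.10 and SAMtools 1.9. The annotation and the strand option of the counting were not given in the sources used here, so reads shared by overlapping or antisense genes cannot be told apart. Members and lists were chosen with earlier results of these data known, and 13 symbol lists could not be applied.

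The count model was edgeR 4.0.16 in R 4.3.3: filterByExpr by region, TMM, and a robust quasi-likelihood fit with region and rat over all libraries (15037 genes, Benjamini-Hochberg, threshold 0.05). Approximate SEs come from the fold change and F statistic. Log2 CPM used a prior count of 2. The rat block was kept because same-numbered libraries come from 1 animal. Deviations from region means correlated above 0.1 in 13 of 15 same-rat pairs. Shares (percent of all gene counts) and log2 ratios were tested by permuting region labels within rats (7776 arrangements, 21 tests in the family). The 105 pairs of libraries all differed by more than sampling noise (lowest chi-square over its degrees of freedom 20.4). Named genes were the members and, for lack of symbols, the 2 identifiers most correlated with a member. Tests were checked on simulated data. Alternatives were DESeq2 1.42.0, its size factors, no filter, no block, other denominators, 10 abundant genes left out, and rats or libraries left out.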

Additional observations from a re-analysis of the deposited data

Results flagged for a closer look

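One value lay far from the rest of its group, by a gap to its neighbour of more than 0.71 of the group's range. It was Col1a1 in the middle library of rat 5, at 15.24 log2 CPM against 16.94 to 17.54 in the other 4 middle libraries. Of 30 sets of 5 libraries screened (levels, shares and ratios by region), this was 1, where chance gives about 1.5 (5%). Col3a1 was also lowest there, at 13.27 log2 CPM, without passing the same screen.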

How the results depend on the processing

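For the 30 tested differences, 385 of 426 values under an alternative kept their direction and side of the threshold. Most of these differences were not called in the main analysis, so for them the same side means not called again. Some alternatives left out only a library outside the regions compared, which changes a difference little or not at all. For the 3 counts of genes called, 49 of 72 stayed within 1.5 times the count given. Leaving out the middle library of rat 5 from the shares and ratios, leaving out single libraries from the SDs, and the sign-change test were chosen after seeing the data. The Col3a1 fall from distal to proximal passed in all 25 alternatives to the main edgeR fit (log2 fold change -2.21 to -1.77), and that from distal to middle in 24 of 25. DESeq2 is among these 25. Without the replicate block, which drops the pairing by rat, Col3a1 stood at -0.94 for middle against distal (not called), Col1a1 turned to 0.15 for middle against distal, 0.18 for proximal against distal and 0.037 for proximal against middle (none called), and the genes called were 2303 for middle against distal and 0 for proximal against middle (edgeR, 62 with the block). The replicate block changed no other call of these genes. DESeq2 called Col3a1 for proximal against middle (-0.95), with 1164 genes called in that comparison. With the median over rats the proximal-to-distal ratio of Col3a1 to Col1a1 (-1.38) was not called. With the exact sign changes of 5 differences neither that ratio (-1.85) nor the Col3a1 share (-3.23 percentage points) was called, since that test cannot go below p = 0.0625.

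With 1 rat or library left out, Col1a1 ran from -0.56 to 0.25 for proximal against distal, from -0.28 to 0.33 for middle against distal and from -0.46 to 0.11 for proximal against middle, never called. It was positive between the ends without rat 5 (0.25), its distal library (0.24) or its proximal library (0.081), and without the proximal library of rat 4 (0.0071). Col3a1 for proximal against middle ran from -1.12 to -0.83, and the row listed as Col1a2 for middle against distal from -0.15 to 0.63. With rats left out in turn, the Col1a1 share differed by -1.22 to 3.38 percentage points between proximal and distal and by -2.42 to 1.30 between proximal and middle, the lowest values without rat 1. The summed share differed by -4.24 to 0.20 for proximal against distal, -1.68 to 1.41 for middle against distal (highest without rat 5) and -3.36 to 0.11 for proximal against middle. Log2 ratios for proximal against middle ran from 0.70 to 1.06 for Col1a1 and from -0.24 to 0.34 for Col3a1, both to the row listed as Col1a2. Genes called numbered 1849 (without rat 4) to 3780 for middle against distal and 0 to 536 (without the proximal library of rat 2) for proximal against middle. The cause of these shifts was not tested. The members had 933 counts or more in every library, and what depth adds to the spread between rats was not tested.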
